A study of Homo sapiens with 6 samples.

Results

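Glycolysis and hypoxia response genes were followed as a module of 33 genes among the 27264 gene rows of the count table. The members were chosen by name, as enzymes of the glycolytic path, regulators of its flux and textbook targets of the hypoxia response, and each of the 33 symbols matched 1 Ensembl identifier. The cells were DLD-1, an epithelial cell line from a human colorectal cancer. The labels of all 6 libraries also carry the name TR21 after DLD-1, which they do not explain. The series has 6 QuantSeq 3' mRNA libraries, from 3 clones whose labels read ZEB2 WT2, WT5 and WT37, each grown once without DOX (cell type labelled epithelial) and once with DOX (labelled mesenchymal). DOX is the usual short form of doxycycline, and ZEB2 is a zinc finger repressor of epithelial genes that the series title ties to epithelial-to-mesenchymal transition. The clones are the 3 replicates of each condition, and each clone has 1 library per condition, so the values of 1 condition carry the differences between clones. All libraries share the ZEB2 WT label, and cells without it that received DOX were not analysed here, so an effect of DOX itself cannot be told apart from one of ZEB2.

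Glycolysis turns glucose into pyruvate in the cytosol, and lactate dehydrogenase then turns pyruvate into lactate. Proliferating tumour cells, those of the colon included, are known for high glycolytic flux. When oxygen is low, prolyl hydroxylases of the EGLN family stop marking the alpha subunits of hypoxia-inducible factors for VHL-dependent breakdown, and the stabilised factors switch on most glycolytic enzymes together with genes of angiogenesis, acid handling and mitophagy. The factors bind a short DNA core, ACGTG or GCGTG.

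Libraries held 5440093 to 7164426 reads in genes. Levels are given as CPM, counts scaled to a common library size, after TMM scaling for library composition, and since the kit reads 1 fragment per transcript end they do not depend on gene length. ZEB2 itself went from 9 to 20 reads with DOX in WT2, from 5 to 9 in WT5 and from 3 to 22 in WT37. A construct without the natural end of the ZEB2 transcript would go uncounted. The summed level of 11 colon epithelial markers was 6773 to 8595 CPM without DOX and 4200 to 5775 CPM with DOX. The summed level of 8 mesenchymal markers was 11.4 to 16.2 CPM without DOX and 9.54 to 18.4 CPM with DOX. ZEB2 itself is 1 of these 8, so its own rise with DOX is part of that sum. VIM had at most 15 reads, and TWIST1 and COL1A2 were at 0. The epithelial sums did not overlap between the conditions, and the mesenchymal sums did. Reads mapped to several places, which were not counted, took 11.8% and 12.01% of the WT37 libraries and 14.6% to 16.0% of the other 4.

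The promoters of 4 members are shown here as examples, chosen after their values were seen. These genes passed the test between clones and have at least 1 window with the core that hypoxia-inducible factors bind. ENO1, ALDOA and LDHA were called lower in WT37 against at least 1 other clone, and HK1 higher. The windows are RefSeq's on GRCh38.p14, from 250 bases before to 50 after a transcription start, read 5′ to 3′ on the gene's strand. ENO1 lies at chr1:8878637-8878936 on the minus strand, and ALDOA at chr16:30064029-30064328, LDHA at chr11:18394313-18394612 and HK1 at chr10:69317931-69318230 lie on the plus strand. Capitals mark ACGTG or GCGTG on either strand (CACGT and CACGC when read on the other strand), with overlapping matches joined. Where a gene has several windows, the one with the most matches is printed, and of equal ones the first by position.
ENO1: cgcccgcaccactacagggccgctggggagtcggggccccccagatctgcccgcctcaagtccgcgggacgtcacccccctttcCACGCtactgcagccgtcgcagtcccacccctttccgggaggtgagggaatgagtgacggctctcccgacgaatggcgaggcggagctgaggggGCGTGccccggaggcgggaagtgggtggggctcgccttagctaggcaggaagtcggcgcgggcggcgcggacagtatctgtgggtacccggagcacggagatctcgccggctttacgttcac
ALDOA: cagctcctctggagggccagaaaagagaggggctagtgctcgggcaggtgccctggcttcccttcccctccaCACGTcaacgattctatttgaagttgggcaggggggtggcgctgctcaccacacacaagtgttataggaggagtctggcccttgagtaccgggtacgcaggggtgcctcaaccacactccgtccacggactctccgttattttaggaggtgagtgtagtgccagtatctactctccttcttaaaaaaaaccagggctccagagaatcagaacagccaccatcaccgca
LDHA: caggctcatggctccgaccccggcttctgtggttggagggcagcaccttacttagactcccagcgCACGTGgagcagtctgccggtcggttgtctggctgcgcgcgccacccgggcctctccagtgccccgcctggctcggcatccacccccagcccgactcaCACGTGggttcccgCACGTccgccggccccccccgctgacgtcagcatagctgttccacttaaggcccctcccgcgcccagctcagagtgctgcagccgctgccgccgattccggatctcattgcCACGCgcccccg
HK1: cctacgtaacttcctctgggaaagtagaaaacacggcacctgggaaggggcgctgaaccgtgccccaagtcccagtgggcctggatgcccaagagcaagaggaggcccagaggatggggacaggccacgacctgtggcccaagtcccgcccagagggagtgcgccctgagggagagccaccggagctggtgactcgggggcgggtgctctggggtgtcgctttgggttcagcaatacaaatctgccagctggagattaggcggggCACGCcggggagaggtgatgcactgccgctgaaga

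The printed windows held 2 such sites for ENO1, 1 for ALDOA, 4 for LDHA and 1 for HK1. Of the 7 HK1 windows, 2 held the core, with 1 of 1 for ENO1, 3 of 3 for ALDOA and 2 of 2 for LDHA. Of the others called lower in WT37, TPI1 had 1 of 2 and P4HA1 1 of 1. Some members did not pass but had both WT37 libraries above the other 4. Of these, PGK1 had 1 of 1, PFKFB3 and KDM3A 2 of 2 each, and PDK1 1 of 2. Differences between members in this were not tested. Of the 30 members with a window used here, 27 had the core in at least 1 window. Counted by window, 36 of 53 member windows held it (67.9%), against 48.4% of all 35116 windows in the table. A match of 5 bases is a description of the sequence and not a binding site. VEGFA had no window in the promoter set. BNIP3L and NDRG1 lie on chromosome 8, whose windows were not used for the members.

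The 17 glycolytic enzymes spanned the whole range of expression. ENO1, the main enolase, was the most abundant member with a mean of 1966 CPM over the 6 libraries, followed by the aldolase ALDOA (1481 CPM), the pyruvate kinase PKM (1148 CPM), the lactate dehydrogenase subunit LDHB (1107 CPM) and the triose phosphate isomerase TPI1 (759 CPM). GPI, which converts glucose 6-phosphate to fructose 6-phosphate, had 548 CPM and LDHA, the subunit that favours lactate, 480 CPM. Phosphoglycerate kinase PGK1 stood at 272 CPM. The phosphofructokinases PFKL and PFKP and the hexokinases HK1 and HK2, which catalyse the early committed steps, stood between 95.2 and 122 CPM. GAPDH, one of the most abundant transcripts of most cells, had only 16.5 CPM and the mutase PGAM1 28.6 CPM. GENCODE release 29 names 62 pseudogenes after GAPDH and 13 after PGAM1, and reads mapped to several places were left uncounted. Their part in these levels was not tested. Outside the enzymes, the most abundant members were PFKFB3, which makes the activator of phosphofructokinase (59.7 CPM), NDRG1, a stress-induced protein of differentiation (56.8 CPM), and the collagen prolyl hydroxylase P4HA1 (48.3 CPM).

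The other 4 members had too few reads to be tested. ALDOC, the brain aldolase, had 0 reads in all 6 libraries, where 3 reads, the limit a count of 0 allows, are 0.392 to 0.58 CPM. CA9, the carbonic anhydrase often used as a hypoxia marker, had at most 1 read. BNIP3, a mitophagy receptor after which 39 pseudogenes are named, had 0 reads in every library without DOX, and 0, 2 and 3 with DOX. ANKRD37 had 2, 0 and 0 reads without it, and 3, 1 and 3 with it. No change was detectable in these genes at this depth.

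With DOX, no member changed by the test used. In edgeR's quasi-likelihood test without a clone term, 0 of 29 tested members and 0 of 11732 genes passed an adjusted p of 0.05 (0.0% called), with 1 member and 709 genes at an unadjusted p under 0.05. With the clone as a block, again 0 of 29 members passed, where 152 of 11732 genes did (1.3%, 77 higher and 75 lower with DOX). At an unadjusted p under 0.05 the blocked fit had 4 members and 1510 genes. DESeq2 and limma-voom also called 0 members, without and with the block. The median log2 fold change of the 29 members was 0.07 without the block and 0.10 with it, beside 0.007 and 0.006 over all genes tested. The value without the block was 0.00533 without the WT37 library lacking DOX, and was 0.0393 without WT5. In both fits 19 members lay above 0 and 10 below. Among the epithelial markers, EPCAM and KRT18 fell and CDX2 rose with DOX in the blocked edgeR fit, and their part in the members' values was not tested. In bulk libraries, fewer cells of a type and less RNA per cell cannot be told apart.

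Among the members with values above 0, ENO2, the neuronal enolase, had the largest DOX value. It had 15.3 CPM without and 17.4 CPM with DOX in WT2, 5.99 and 10.4 CPM in WT5, and 7.39 and 16.2 CPM in WT37. Each clone was higher with DOX, but WT2 without DOX lay above WT5 with DOX, so the groups overlapped. The means were 9.55 ± 4.997 and 14.7 ± 3.74 CPM (SD, n = 3), with a log2 fold change of 0.69 ± 0.21 SE in the blocked fit (edgeR, adjusted p = 0.162) and 0.64 ± 0.34 without the block (adjusted p = 0.901). PFKM, the muscle phosphofructokinase, had 32.7 and 53.1 CPM without and with DOX in WT2, 35.1 and 39.8 CPM in WT5, and 44.0 and 55.1 CPM in WT37. It was higher with DOX in each clone, though WT37 without DOX exceeded WT5 with DOX. Its log2 fold change was 0.40 ± 0.13 SE in the blocked edgeR fit (adjusted p = 0.192) and 0.40 ± 0.17 without the block (0.791). PGAM1 had 23.2 and 31.9 CPM in WT2, 31.1 and 24.7 CPM in WT5, and 21.8 and 38.9 CPM in WT37, so that WT5 moved against the other clones. Without WT5, the blocked fit called PFKM (adjusted p = 0.0434) and PGAM1 (0.0222), where the genes called rose to 6.25%. With no low-count filter, it called ENO2 (0.030), with 2.19% of genes.

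Among those with values below 0, HK2, the inducible hexokinase, had 87.3 CPM without and 74.8 CPM with DOX in WT2, 102 and 95.5 CPM in WT5, and 123 and 88.9 CPM in WT37. Each clone was lower with DOX, while the groups overlapped. Its log2 fold change was -0.26 ± 0.11 SE in the blocked edgeR fit (adjusted p = 0.309) and -0.27 ± 0.16 without the block (0.908). PDK1, the kinase that closes pyruvate dehydrogenase, had 15.7 and 11.7 CPM in WT2, 16.0 and 15.8 CPM in WT5, and 24.6 and 16.3 CPM in WT37. The WT37 library without DOX stood above the other 5, which lay between 11.7 and 16.3 CPM. ADM, the vasodilator adrenomedullin, had 18.2, 17.2 and 18.1 CPM without DOX and 15.9, 14.7 and 13.7 CPM with DOX in WT2, WT5 and WT37. ADM and EGLN3, the hypoxia-induced prolyl hydroxylase (7.74 ± 0.08 and 7.01 ± 0.22 CPM, SD, n = 3), were the 2 of 29 members whose groups did not overlap, both lower with DOX, where 11.4% of all genes tested had groups that did not overlap. The blocked edgeR fit gave ADM -0.27 ± 0.16 SE (adjusted p = 0.494), PDK1 -0.35 ± 0.17 (0.407) and EGLN3 -0.15 ± 0.21 (0.819). EGLN3 had only 40 to 56 reads per library, and its 95% counting interval spanned 0 in each clone.

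Within single clones the log2 ratios of the members with DOX ran from -0.42 to 0.70 in WT2 and from -0.33 to 0.80 in WT5. In WT37 they ran from -0.59 to 1.13. A member kept 1 direction in all 3 clones in 13 of 29 cases, where 35.1% of all genes tested did. Of these, 9 were higher with DOX (PFKL, PFKM, PFKP, ALDOA, ENO2, PDK3, P4HA1, VEGFA and NDRG1) and 4 were lower (HK2, PDK1, EGLN3 and ADM). The median log2 ratio of the 29 members came to 0.04 for WT2, 0.05 for WT5 and 0.01 for WT37. These ratios compare 1 library with 1 library, and their 95% exact binomial intervals cover counting error only. In WT37, 8 members had an interval above 0 and 10 below it, against 6 and 3 in WT2 and 9 and 3 in WT5. The share of all genes with such intervals was not counted, and these counts depend on TMM scaling. Read depth sets the width, as for ENO1 (-0.34 to -0.26) and EGLN3 (-0.75 to 0.40) in WT37. LDHA went from 453 to 319 CPM in WT37 (log2 ratio -0.51, interval -0.58 to -0.43) and from 514 to 462 CPM in WT2 (-0.16, -0.23 to -0.08), and it was 564 and 571 CPM in WT5 (0.02, -0.05 to 0.08). The difference between clones in the effect of DOX has no replicate and was not tested.

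**Figure D1:**
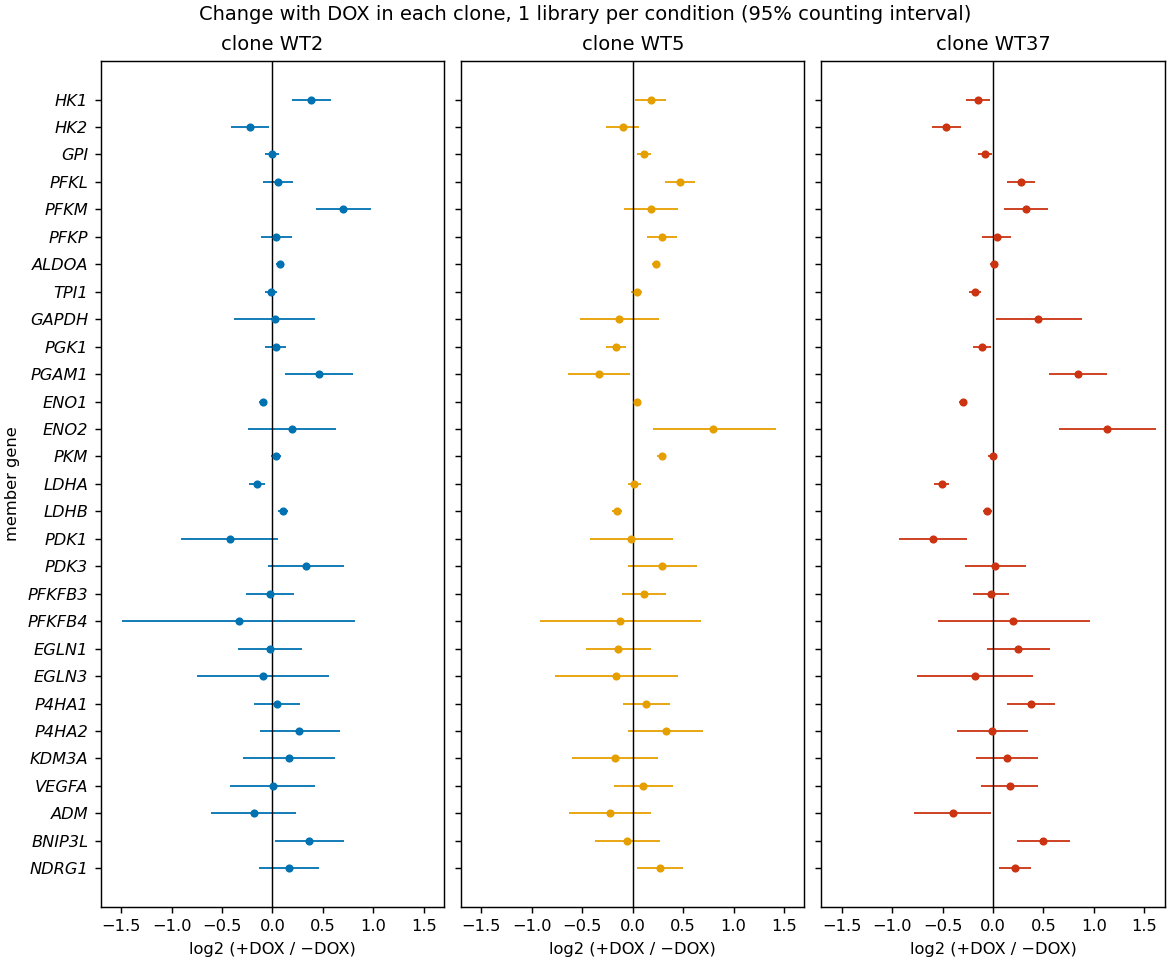
Log2 ratio of the level with DOX to that without DOX for each of 29 members (rows) in clones WT2, WT5 and WT37 (panels), with 1 library per condition. Points are the ratios and bars their 95% counting intervals. ENO2 and PFKM lay right of 0 and HK2 and PDK1 left of 0 in each panel, while PGAM1 lay left of 0 in WT5 alone.

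Members were called between clones, where none was called with DOX in either main fit. The tests use different models, and the sizes of clone and DOX differences were not compared directly. In the test of the clone term, with DOX as a covariate, 7 of 29 members passed (edgeR, adjusted p under 0.05), where 884 of 12155 genes did (7.27%). These were NDRG1, HK1, ENO1, ALDOA, TPI1, VEGFA and LDHA. The fit assumes that DOX acts alike in all clones, which was not tested. The DOX values of HK1 and ENO1 went opposite ways in different clones, and that of LDHA was -0.51 in WT37 and 0.02 in WT5. Most of the difference set WT37 apart. Against WT2, 7 members passed in WT37, where 5.98% of genes did. Of these, 3 were higher (NDRG1, HK1 and VEGFA, with 3.25% of genes called higher) and 4 lower (ENO1, TPI1, ALDOA and P4HA1, with 2.73% called lower). Against WT5, 5 members passed in WT37, where 6.19% of genes did, with NDRG1 higher (3.31% of genes called higher) and ENO1, LDHA, TPI1 and ALDOA lower (2.89% called lower). Between WT5 and WT2, 0 of 29 members passed, where 1.05% of genes did, with 5 members and 1394 genes at an unadjusted p under 0.05. There limma-voom also called 0 members, while edgeR with no low-count filter called VEGFA, NDRG1, HK1 and ENO2 (1.46% of genes). Since no member passed either DOX test, the 7 members called among clones cannot be set against members called with DOX.

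**Figure D2:**
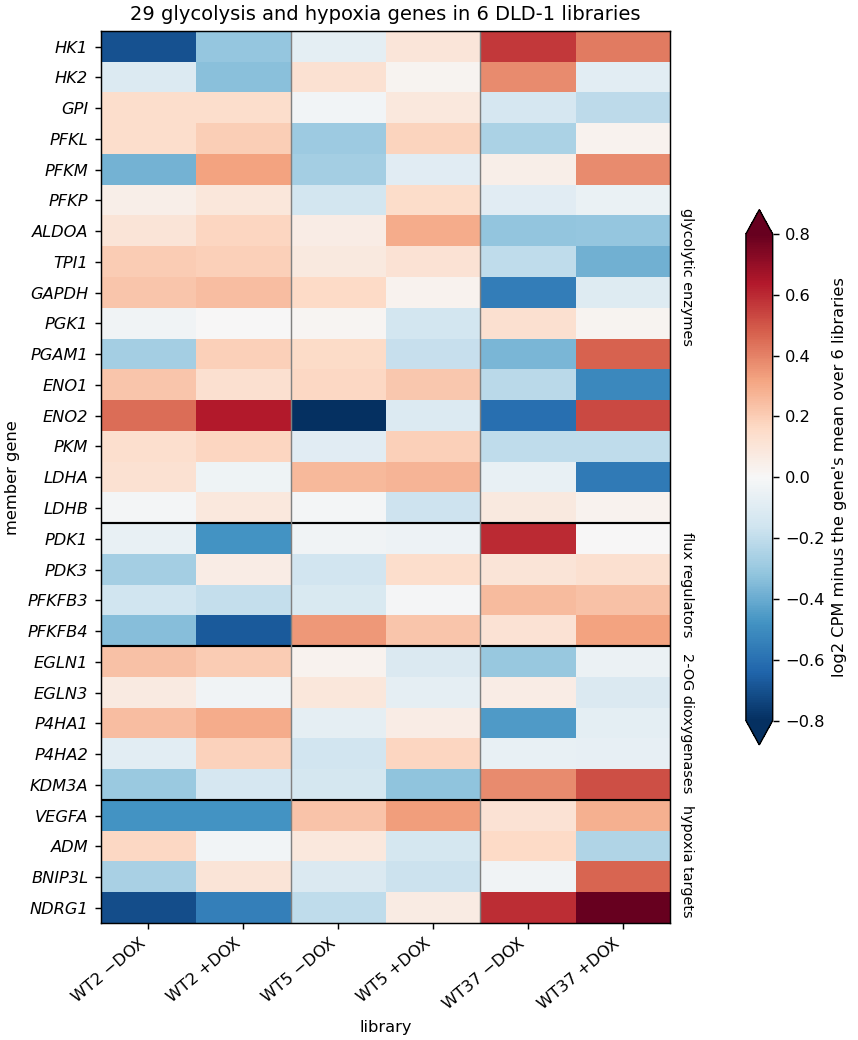
Log2 CPM of 29 members (rows, in 4 role groups) minus the gene's own mean over the 6 libraries (columns). Red is above and blue below that mean. The WT37 columns are blue for ENO1, ALDOA, TPI1, PKM and LDHA, and red for HK1, PFKFB3, KDM3A and NDRG1.

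Among the glycolytic enzymes, ENO1, ALDOA and TPI1 were lower in WT37 than in both other clones, and LDHA lower than in WT5. LDHB and PGK1, abundant enzymes of the same path, had values of 0.01 and 0.08 for WT37 against WT2, and PKM did not pass. ENO1 had 2257 and 2114 CPM in WT2 without and with DOX, 2170 and 2241 CPM in WT5, and 1661 and 1352 CPM in WT37. Both WT37 libraries lay below the other 4, and their mean was 68.6% of that of the others. The log2 fold change of WT37 was -0.54 ± 0.11 SE against WT2 (edgeR, adjusted p = 0.0152) and -0.56 ± 0.11 against WT5 (0.0136). ALDOA had 1568 and 1649 CPM in WT2, 1525 and 1793 CPM in WT5, and 1173 and 1181 CPM in WT37. The fold changes of WT37 were -0.45 ± 0.10 SE against WT2 (edgeR, adjusted p = 0.0268) and -0.49 ± 0.11 against WT5 (0.018). TPI1 had 866 and 858 CPM in WT2, 791 and 813 CPM in WT5, and 652 and 574 CPM in WT37, again with WT37 below all others (-0.50 ± 0.11 SE against WT2, adjusted p = 0.0198, and -0.39 ± 0.11 against WT5, 0.0479, edgeR). LDHA, whose values are given above, was lowest in WT37 with DOX and passed against WT5 (-0.58 ± 0.13 SE, edgeR, adjusted p = 0.0218) and not against WT2 (-0.35 ± 0.13, 0.124). ENO1 is known as a source of the repressor MBP-1 as well as the glycolytic enzyme, and the counts do not separate transcripts of 1 gene.

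HK1, the housekeeping hexokinase bound to mitochondria, went the other way. It had 68.8 CPM without and 89.9 CPM with DOX in WT2, 106 and 119 CPM in WT5, and 165 and 149 CPM in WT37. The clones did not overlap, and WT37 was the highest. The log2 fold change of WT37 was 0.99 ± 0.14 SE against WT2 (edgeR, adjusted p = 0.00169) and 0.48 ± 0.14 against WT5 (0.0544). HK1 made up 44.1% and 54.6% of the hexokinase reads (HK1 and HK2) in WT2 without and with DOX, 50.8% and 55.5% in WT5, and 57.4% and 62.6% in WT37, with 95% exact binomial half-widths of at most 3.48 points. This share does not depend on the scaling of libraries, and it was higher with DOX than without in each clone. LDHA made up 32.0% and 28.2% of the reads of both lactate dehydrogenase genes in WT2, 34.0% and 36.7% in WT5, and 27.9% and 22.1% in WT37, with half-widths of at most 1.01 points. The WT37 library with DOX had the lowest share, and WT37 without DOX lay next to WT2 with DOX.

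**Figure D3:**
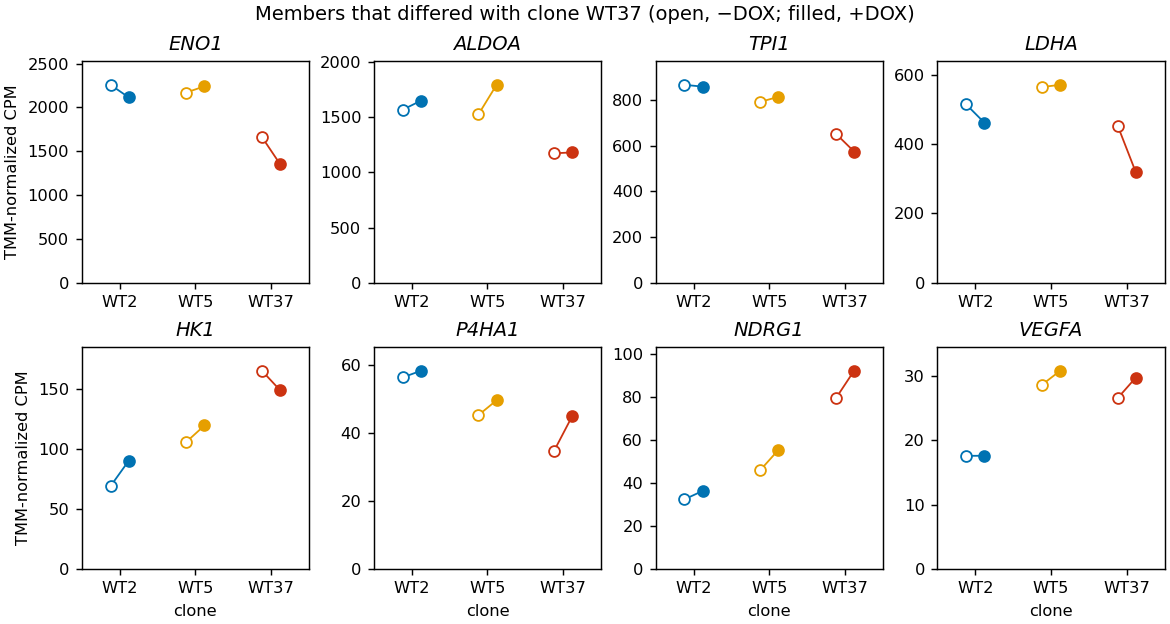
TMM-normalized CPM of the 8 members that passed a test between clones, by clone, with open points without DOX and filled points with DOX, joined within a clone. Each axis starts at 0. ENO1, ALDOA, TPI1 and LDHA have their lowest values in WT37, NDRG1 and HK1 their highest, and VEGFA its lowest in WT2.

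Summed over the 17 enzymes, the level was 8920 and 8965 CPM in WT2 without and with DOX, 8529 and 9103 CPM in WT5, and 7478 and 6885 CPM in WT37. By condition the sum was 8309 ± 746 CPM without and 8318 ± 1242 CPM with DOX (SD, n = 3), a difference smaller than the spread. The mean of WT37 was 80.9% of that of the other 4 libraries. ENO1 made up 40.6% of that gap, ALDOA 26.9%, PKM 13.9% and TPI1 12.9%, while LDHB, HK1 and PGK1 were higher in WT37 and made up -3.52%, -3.58% and -1.28%. As a share of reads in genes without composition scaling, the enzymes took 0.849% and 0.875% in WT2, 0.846% and 0.902% in WT5, and 0.762% and 0.741% in WT37. WT37 was the lowest clone on both scales for the 17 enzymes. Without ENO1, ALDOA, PKM, LDHB and TPI1, the other 12 summed to 1883 and 1884 CPM in WT2. They summed to 1879 and 1967 CPM in WT5, and 1830 and 1664 CPM in WT37. Without composition scaling these 12 took 0.179% and 0.184% in WT2, 0.186% and 0.195% in WT5, and 0.187% and 0.179% in WT37. On that scale the clones overlapped. No test was run on these sums.

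**Figure D4:**
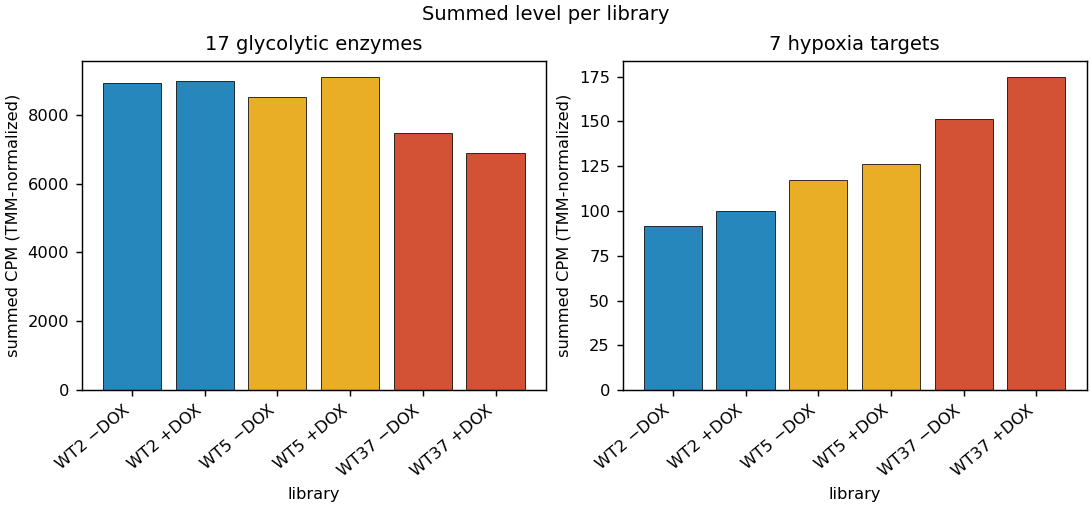
Summed TMM-normalized CPM per library of the 17 glycolytic enzymes (left) and of the 7 secreted, surface and mitochondrial hypoxia targets (right), with axes from 0. The enzymes reach 6885 to 7478 CPM in WT37 and 8529 to 9103 CPM elsewhere. The targets reach 151 and 175 CPM in WT37 and 91.8 to 126 CPM elsewhere.

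All 4 regulators of flux had values above 0 for WT37 against WT2, and none passed the test. PFKFB3 had 52.9 and 52.0 CPM in WT2 without and with DOX, 54.5 and 58.8 CPM in WT5, and 70.5 and 69.6 CPM in WT37. Both WT37 libraries lay above the other 4, and the log2 fold change against WT2 was 0.42 ± 0.13 SE (edgeR, adjusted p = 0.0839). PDK1 also had its highest levels in WT37, at 0.57 ± 0.21 SE against WT2 (edgeR, adjusted p = 0.124). PDK3, a hypoxia-induced kinase of the same family, and PFKFB4, a bifunctional enzyme like PFKFB3, were at 0.21 ± 0.17 and 0.72 ± 0.37 SE. PFKFB4 had only 2.30 to 4.66 CPM.

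Among the dioxygenases, which use oxygen and 2-oxoglutarate, P4HA1 had 56.4 and 58.4 CPM in WT2, 45.3 and 49.7 CPM in WT5, and 34.8 and 45.0 CPM in WT37. WT37 was the lowest clone in both conditions, and it passed against WT2 alone (-0.53 ± 0.14 SE, edgeR, adjusted p = 0.0482, against 0.304 for WT5). KDM3A, a histone demethylase induced by hypoxia, had 14.1 and 15.8 CPM in WT2, 15.7 and 13.8 CPM in WT5, and 22.5 and 24.7 CPM in WT37. It was highest in WT37 and just missed the threshold (0.65 ± 0.19 SE against WT2, adjusted p = 0.0622, and 0.68 ± 0.19 against WT5, 0.052, edgeR). EGLN1, the main oxygen sensor, EGLN3 and the second collagen hydroxylase P4HA2 had log2 values between -0.39 and -0.05 for WT37 against WT2, none past the threshold.

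Of the 4 tested targets with secreted, surface or mitochondrial products, NDRG1 had the firmest clone difference of all members. It had 32.3 and 36.2 CPM in WT2 without and with DOX, 45.8 and 55.2 CPM in WT5, and 79.3 and 92.1 CPM in WT37. The clones stood in the order WT2, WT5 and WT37 with no overlap. WT37 was higher by a log2 fold change of 1.32 ± 0.14 SE against WT2 (edgeR, adjusted p = 0.000200) and 0.76 ± 0.13 against WT5 (0.00646), while WT5 against WT2 was at 0.56 ± 0.14 (0.092). VEGFA, the main angiogenic factor, had 17.6 and 17.6 CPM in WT2, 28.6 and 30.8 CPM in WT5, and 26.6 and 29.8 CPM in WT37. Here WT2 was the low clone and WT5 and WT37 overlapped (WT37 at 0.68 ± 0.17 SE against WT2, adjusted p = 0.0346, and -0.08 ± 0.16 against WT5, 0.805, edgeR). BNIP3L, the mitophagy receptor also called NIX, ranged from 23.4 to 38.7 CPM with its highest level in WT37 with DOX, and neither it nor ADM passed the clone test (adjusted p = 0.311 and 0.898, edgeR). The summed level of the 7 targets was 91.8 and 100 CPM in WT2, 118 and 126 CPM in WT5, and 151 and 175 CPM in WT37, of which NDRG1 was the largest part in each library.

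**Figure D5:**
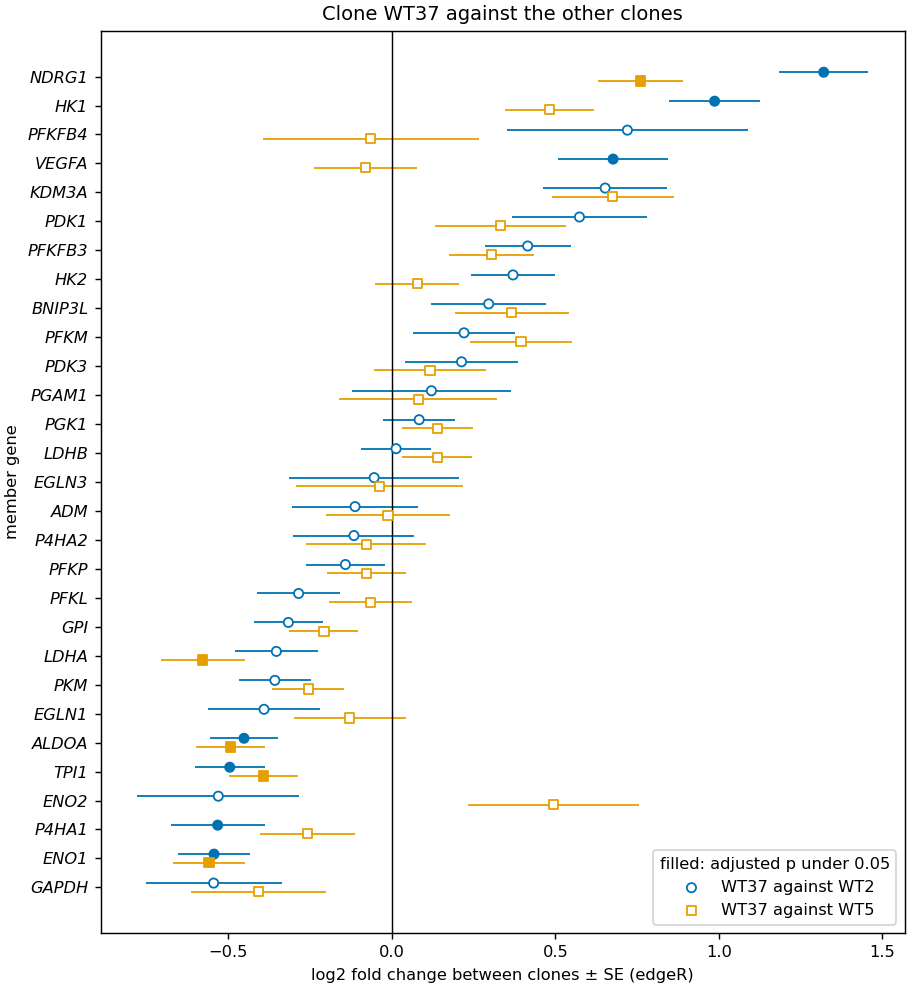
Log2 fold change of WT37 against WT2 (circles) and against WT5 (squares) for 29 members, with standard errors from edgeR. Filled marks passed an adjusted p of 0.05. The filled marks run from ENO1 at -0.54 to NDRG1 at 1.32 against WT2.

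Counted without a model, both WT37 libraries lay below the other 4 for 8 of 29 members (GPI, ALDOA, TPI1, GAPDH, ENO1, PKM, LDHA and P4HA1), where 13.9% of all genes did. They lay above the other 4 for 6 members (HK1, PGK1, PDK1, PFKFB3, KDM3A and NDRG1), where 15.3% of all genes did. Of the 16 tested glycolytic enzymes, the lower group holds 7 and the higher group 2. Scaling by library totals alone raised the median log2 fold change of all genes to 0.13 for WT37 against WT2, against 0.008 with TMM. On that scale 5 members lay below (GPI, ALDOA, TPI1, GAPDH and ENO1, with 8.17% of all genes). Another 8 lay above (HK1, PGK1, LDHB, PDK1, PDK3, PFKFB3, KDM3A and NDRG1, with 21.8% of all genes). The calls of all genes for WT37 against WT2 then split into 570 higher and 141 lower, beside 395 and 332 with TMM, those against WT5 into 450 and 171, beside 402 and 351, and those of WT5 against WT2 into 75 and 25, beside 83 and 45. The members called against WT2 became 6 higher (HK2, KDM3A, VEGFA, NDRG1, PFKFB3 and HK1) and 2 lower (ENO1 and TPI1). ENO1 was called lower, and NDRG1 and HK1 higher, on both scales, and ALDOA, TPI1 and LDHA had values below 0 on both.

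These calls rest on few libraries. Leaving out clone WT5 raised the members called among clones to 14 of 29 (15.0% of genes), with 7 higher and 7 lower in WT37 against WT2, and leaving out WT2 or WT37 left 4 (3.38% of genes) and 0 (1.11%). Leaving out the WT2 library without DOX gave 3 members (3.04% of genes), and the one with DOX 6 (5.71%). Leaving out either WT5 library gave 13 members (19.0% of genes without the library lacking DOX and 16.4% without the one with it), and leaving out either WT37 library gave 2 (2.64% and 1.57%). The share of all genes called moved with the members' count. NDRG1 passed against WT2 in all 14 alternatives run for that contrast, with an adjusted p of at most 0.00515. HK1 failed in 2 of them, without the WT2 or the WT37 library that lacked DOX. ENO1, TPI1 and VEGFA failed in 5, ALDOA in 6 and P4HA1 in 9. Without the WT37 library with DOX, 0 members passed against WT5, and without the one lacking DOX only ENO1 and LDHA did. With no DOX term in the model, NDRG1 and HK1 alone passed the clone test.

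The 12 tested members with pseudogenes named after them had a median log2 fold change of -0.36 for WT37 against WT2, with 4 above and 8 below 0 and with 0 called higher and 3 lower. The 17 without had a median of 0.22, with 10 above and 7 below 0 and with 3 called higher and 1 lower. The difference between these medians was not tested, and for WT5 against WT2 both were -0.04. ENO1 and TPI1 have 4 such pseudogenes each, LDHA 6 and ALDOA 2, while HK1, NDRG1, VEGFA and P4HA1 have 0. The share of reads mapped to several places was lowest in WT37, as given above, and its part in the result was not tested. LDHB, with 3 pseudogenes, was at 0.01 ± 0.11 SE against WT2, and GPI, with 0, lay below the other libraries in WT37. No source used here says whether strand entered the counting. SPSB2 lies opposite TPI1, ENO1-AS1 opposite ENO1, RPS15AP28 opposite HK1 and SENP1 opposite PFKM, and LRRC23 overlaps ENO2 on its own strand, so these counts are uncertain to that extent.

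Around the members, 117 other genes of glycolysis, pyruvate oxidation, hypoxia signalling, glycogen and pentose phosphate metabolism and gluconeogenesis were listed, of which 89 were tested with DOX and 94 between clones. With DOX, 0 passed in the edgeR fit lacking the block, where 9 had an unadjusted p under 0.05, and 1 passed in the blocked fit. That gene was ANGPTL4, a secreted inhibitor of lipoprotein lipase and a known hypoxia target. It had 6.18 and 14.3 CPM without and with DOX in WT2, 3.497 and 5.71 CPM in WT5, and 6.71 and 15.7 CPM in WT37. Each clone was higher with DOX, though WT5 with DOX lay below WT2 and WT37 without it (log2 fold change 1.09 ± 0.21 SE, blocked edgeR fit, adjusted p = 0.0357, and 0.675 without the block). It failed in 4 of 11 alternatives of the blocked fit.

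Of the transporters of glucose and lactate, SLC16A3, SLC2A1 and SLC2A3 passed the clone test, and the more abundant SLC16A1 (344 CPM on average) did not (edgeR, adjusted p = 0.789). SLC16A3, the hypoxia-induced lactate exporter MCT4, had 20.9 and 13.98 CPM in WT2, 197 and 231 CPM in WT5, and 28.6 and 27.9 CPM in WT37. WT5 stood far above the other clones (log2 fold change 3.63 ± 0.18 SE against WT2, and WT37 -2.93 ± 0.17 against WT5, edgeR, adjusted p of the clone test = 1.4e-07). SLC2A1, the main glucose transporter GLUT1, had 217 and 155 CPM in WT2, 287 and 263 CPM in WT5, and 226 and 153 CPM in WT37. It was lower with DOX in each clone without passing (-0.39 ± 0.10 SE, blocked edgeR fit, adjusted p = 0.108), and it was highest in WT5 (clone test, 0.0173). SLC2A3, the high-affinity transporter GLUT3, had 0.58 and 0.493 CPM in WT2, which are 3 reads each, 3.66 and 1.998 CPM in WT5, and 9.86 and 4.96 CPM in WT37 (clone test, edgeR, adjusted p = 0.00138).

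In all, 10 of 94 listed genes passed the clone test, where 7.27% of all genes did. WT37 had 9 higher than WT2 and 2 lower (BHLHE41, -1.20 ± 0.31 SE, adjusted p = 0.0429, and GPD2, -0.57 ± 0.15, 0.0390, edgeR), where 3.25% and 2.73% of all genes were called. Those in WT37 above both other clones were CA12, a surface carbonic anhydrase, with 8.31 and 10.03 CPM in WT2, 13.2 and 16.0 CPM in WT5 and 25.9 and 27.3 CPM in WT37, HMOX1, which breaks down haem, and the glycogen phosphorylase PYGL, with SLC2A3 and the corepressor RCOR2. AK4, a mitochondrial adenylate kinase, was highest in WT5 (19.8 and 25.3 CPM, clone test, edgeR, adjusted p = 0.0115), and ANGPTL4 lowest there (0.0281). PDP2, a phosphatase that opens pyruvate dehydrogenase, completed the 10 (0.0494). HIF1A, the alpha subunit of the main hypoxia factor, had 51.6 and 42.3 CPM in WT2, 51.8 and 54.9 CPM in WT5, and 66.1 and 70.6 CPM in WT37. It was higher in WT37 than in WT2 (0.55 ± 0.15 SE, edgeR, adjusted p = 0.0451, lost in 5 of 14 alternatives), though the clone test over all 3 gave 0.0726. EPAS1, the second alpha subunit, and VHL, which marks both for breakdown, did not pass (clone test, edgeR, adjusted p = 0.138 and 0.968). HIF activity is set largely at the protein level, which these libraries do not measure.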

How the data were processed

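Gene expression was measured with QuantSeq 3' FWD libraries, per the labels' protocols. The deposited values are raw read counts per Ensembl gene (27264 rows), and 4 further rows hold the reads the authors gave to no gene, 32.2% to 39.8% of a library, which were left out of sizes and tests. The submitters' processing notes name GRCh38 and DESeq2, while aligner, counter and annotation are not given here. Depth was 5440093 to 7164426 reads in genes. Symbols came from a name table and GENCODE 29.

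All genes were fitted in R 4.3.3 with edgeR 4.0.16 (TMM, filterByExpr, robust quasi-likelihood test, Benjamini-Hochberg over all genes, threshold 0.05), for DOX and for the clone with DOX as covariate. Alternatives used DESeq2 1.42.0, limma 3.58.1, other filters and scalings, and left-out clones and libraries. The code of the fits was run on simulated counts. These had less spread than the unblocked DOX fit found, and no clone differences where DOX was simulated. That run does not show how the tests perform on these libraries. Standard errors are approximate, from the fold change and its F statistic. The 2 libraries of a clone had deviations from the condition means that correlated across genes (r = 0.49, 0.28 and 0.53), so the clones, shared in the labels, paired the samples, and the blocked values are given beside the others. Members with an adjusted p under 0.05, or with the 3 largest or smallest DOX values, were named with all libraries, and other pathway genes if they passed. The members and lists were chosen with earlier results of these data known. The labels do not say how the clones were derived.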

Additional observations from a re-analysis of the deposited data

Results flagged for a closer look

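The 5 members below moved with DOX in opposite directions in different clones, with counting intervals on both sides of 0. The share of all genes that did so was not counted. These ratios use TMM scaling, with factors of 1.02 and 1.08 for WT37 without and with DOX. Without that scaling, the WT37 intervals of GPI, HK1 and LDHB would reach above 0. The difference between clones was not tested, since each clone has 1 library per condition. PGAM1 had the widest gap, 1.17 on the log2 scale, from -0.33 in WT5 to 0.84 in WT37, with 0.46 in WT2. HK1 was higher with DOX in WT2 (0.39) and WT5 and lower in WT37 (-0.15), a gap of 0.537. ENO1 was higher in WT5 (0.05) and lower in WT2 and WT37 (-0.30), a gap of 0.344. LDHB was higher in WT2 (0.10) and lower in WT5 (-0.15) and WT37, a gap of 0.255. GPI was higher in WT5 (0.11) and lower in WT37 (-0.08), a gap of 0.187.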

How the results depend on the processing

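The count of members called with DOX was 0 in every alternative of the fit without a block, and that of genes was 152 with the replicate block, 206 with no low-count filter, 57 with DESeq2 and 0 to 35 when clones or single libraries were left out. In the fit with the replicate block, members called went from 0 to 1 with no filter and ran from 0 to 2 without 1 clone. Genes called there went from 152 to 0 with no replicate block, 518 with no filter and 94 on library totals, and ran from 5 to 743 without 1 clone. The median member value with DOX, 0.0746, was 0.0983 with the replicate block, 0.111 on library totals 0.0393 to 0.0528 without 1 clone and 0.00533 to 0.103 without 1 library. The replicate block changed no other call of a member.

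In the clone test, members called went from 7 to 2 with no DOX term, and ran from 0 to 14 without 1 clone or library. Genes went from 884 to 1783 with no filter, 440 with DESeq2 and 262 with no DOX term, and ran from 129 to 2443. For WT37 against WT2, members went to 2 and genes to 201 with no DOX term, genes to 1244 with no filter, and they ran from 1 to 16 members and from 101 to 2162 genes. For WT37 against WT5, the values were 1 and 192 with no DOX term, 1294 genes with no filter, and 0 to 8 members and 48 to 1780 genes over left-out libraries. For WT5 against WT2, no filter gave 4 members and 346 genes, no DOX term 60 genes, and left-out libraries 49 to 410 genes. The lone library of a clone was then assumed to vary like the others. The cause of these moves was not tested.

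On library totals, a scale chosen after seeing the data like the non-robust fit, the mean enzyme sum of WT2 was 8615 CPM, the median DOX value of members was 0.0739 in WT2 and 0.0873 in WT37, and VEGFA in WT37 against WT5 was 0.00209. For WT37 against WT2, SLC2A1 ran from -0.132 to 0.145 and ANGPTL4 from -0.0166 to 0.231 over left-out libraries. The sums of hypoxia targets moved by less than the spread within a clone. With 2 libraries per clone and 3 per condition, low members such as PFKFB4 and EGLN3 had intervals too wide to show small changes.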
